A study of Mus musculus with 6 samples.

Results

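Phosphomannomutase 1 (Pmm1) and 9 further enzymes that supply mannose phosphate, GDP-mannose and UDP-N-acetylglucosamine (UDP-GlcNAc) were followed in hearts of mice that lacked Elac2 in striated muscle and of control mice. The members were taken by gene name from the deposited tables: Pmm1, Pmm2, Mpi, Gmppa and Gmppb of the mannose arm, and Gfpt1, Gfpt2, Gnpnat1, Pgm3 and Uap1 of the hexosamine arm. All 10 were found among 51888 rows, and all 10 passed the filter on low counts, as did 14302 rows in all. The set, led by Pmm1, was selected on its counts in knockout against control hearts, so the values of the 10 enzymes in that comparison are a description and carry no test.

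RNA of whole hearts was sequenced from 3 knockout mice, titled L/L, cre and labelled Elac2 -/-, and from 3 control mice, titled L/L and labelled Elac2 +/+, all on a C57BL/6 background. In the knockouts, a loxP-flanked exon of Elac2, the gene of the tRNA 3' end endonuclease RNase Z, was removed by cre from the promoter of muscle creatine kinase, written creatinine kinase in the labels, so heart cells in which this promoter is silent kept the gene. No control carried cre, so cre and the loss of Elac2 cannot be told apart, and the labels used here state no age. Nothing in the labels says more of how the mice of a group are related, so the spread between 3 libraries is the only error available.

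In the mannose arm, Mpi interconverts fructose 6-phosphate and mannose 6-phosphate, the phosphomannomutases move the phosphate to position 1 of the sugar, and GDP-mannose pyrophosphorylase makes GDP-mannose, the mannose donor for N-glycans, O-mannosyl glycans and glycosylphosphatidylinositol anchors. In the hexosamine arm, Gfpt1 or Gfpt2 takes fructose 6-phosphate and glutamine to glucosamine 6-phosphate, Gnpnat1 acetylates it, Pgm3 moves the phosphate, and Uap1 forms UDP-GlcNAc, which feeds N-glycans, hyaluronan, sialic acid and the O-GlcNAc mark on cytosolic and nuclear proteins. In heart and skeletal muscle both arms are known for the glycans of dystroglycan and of ion channels.

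The promoters of both paralog pairs are shown because the 2 genes of each pair stood differently in knockout hearts. They are RefSeq sequences of GRCm38.p6, from 250 bases before to 50 bases after the start, written 5' to 3' on the strand of the gene. Capitals mark each CCAAT or its complement ATTGG. The windows are chr15:81960881-81961180 on the minus strand for Pmm1, chr16:8637457-8637756 on the plus strand for Pmm2, chr6:87042596-87042895 on the plus strand for Gfpt1 and chr11:49793905-49794204 on the plus strand for Gfpt2.
Pmm1: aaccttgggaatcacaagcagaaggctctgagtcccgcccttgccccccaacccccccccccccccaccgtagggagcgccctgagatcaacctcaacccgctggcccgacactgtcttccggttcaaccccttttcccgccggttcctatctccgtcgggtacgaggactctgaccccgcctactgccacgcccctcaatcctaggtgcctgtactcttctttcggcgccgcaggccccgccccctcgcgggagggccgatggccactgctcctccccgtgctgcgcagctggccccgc
Pmm2: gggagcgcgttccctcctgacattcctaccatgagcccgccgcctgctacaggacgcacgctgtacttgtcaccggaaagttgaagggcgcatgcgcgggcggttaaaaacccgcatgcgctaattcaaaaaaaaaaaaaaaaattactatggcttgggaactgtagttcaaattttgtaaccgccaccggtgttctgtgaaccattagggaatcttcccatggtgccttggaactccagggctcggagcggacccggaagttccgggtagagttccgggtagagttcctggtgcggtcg
Gfpt1: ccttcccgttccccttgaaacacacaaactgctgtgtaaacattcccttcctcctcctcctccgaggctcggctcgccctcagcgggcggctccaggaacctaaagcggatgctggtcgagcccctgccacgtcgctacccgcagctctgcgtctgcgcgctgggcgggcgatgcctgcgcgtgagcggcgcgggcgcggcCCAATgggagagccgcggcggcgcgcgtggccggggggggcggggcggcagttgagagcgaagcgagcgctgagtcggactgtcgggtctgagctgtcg
Gfpt2: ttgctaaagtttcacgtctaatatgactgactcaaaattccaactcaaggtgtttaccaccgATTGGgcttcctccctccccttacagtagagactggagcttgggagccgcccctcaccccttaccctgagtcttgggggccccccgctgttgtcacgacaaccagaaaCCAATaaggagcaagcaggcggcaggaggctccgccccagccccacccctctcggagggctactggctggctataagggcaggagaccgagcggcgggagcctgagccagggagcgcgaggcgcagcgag
Promoters of 8 of the 10 members were in the RefSeq table, without Gmppb and Gnpnat1. The 5 motifs searched on both strands were TGATGNAA, the core bound by ATF4 with C/EBP partners, TGACGTGG and the longer element ERSE, which both respond to endoplasmic reticulum stress, the E-box CACGTG, and CCAAT, whose letters are also part of ERSE. None of the first 4 stood in any of the 8 windows, and they stood in 3.97%, 0.676%, 0.119% and 7.15% of all 32851 promoters of this length. A CCAAT stood in 5 of the 8, Gmppa, Uap1, Gfpt1, Pgm3 and Gfpt2, against 37.4% of all promoters. Its nearest copy began 49 bases before the start in Gfpt1 and 80 bases before it in Gfpt2, and neither phosphomannomutase window held one. The Pmm1 window was 68.0% G and C with 23 CpG sites and that of Pmm2 54.0% with 22, against medians of 52.7% and 7 over all promoters.

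The libraries held 9850100 to 14461110 counts in knockouts and 12057962 to 14276410 in controls. Mitochondrial-encoded features took 33.3% to 36.7% of counts in knockouts and 49.3% to 61.1% in controls. Levels below are counts per 1000000 (CPM) of the TMM-scaled library size, where TMM is the scaling of edgeR that centres most genes. Elac2 was at 5.36, 5.63 and 6.52 CPM in knockout hearts and at 15.05, 14.00 and 13.01 CPM in control hearts, so the labels and the counts ran the same way. The summed level of 10 cardiomyocyte markers was 20880 to 25330 CPM in knockouts and 37380 to 38590 CPM in controls. Of these, 1 was called higher and 3 lower at an adjusted p under 0.05 in edgeR's quasi-likelihood test, against 36.5% of all tested genes called in either direction. The sum of 10 fibroblast markers (1 higher) was 2374 to 3408 CPM in knockouts and 1702 to 2525 CPM in controls. That of 10 endothelial markers (5 lower) was 566.5 to 697.4 CPM in knockouts and 780.4 to 869.8 CPM in controls. Smooth muscle and pericyte markers (2 of 10 higher and 3 lower) summed to 750.8 to 810.8 CPM in knockouts and 1179 to 1452 CPM in controls. Macrophage markers (1 of 10 higher) summed to 202.5 to 241.0 CPM in knockouts and 189.0 to 208.4 CPM in controls. No marker of these 5 types was at 0 in all 6 libraries. The sums and calls of these markers hold for the TMM scale only. The TMM-scaled library size was above the total counts in each knockout, as with 18844006 against 14461110 in knockout 1. It was below them in each control, as with 8609249 against 12057962 in control 3. On library size alone the knockout sums thus rise relative to controls, and the gaps of the lower sums can shrink or close. Those sums were not computed. In whole-heart RNA, fewer cells of a type and less RNA per cell cannot be told apart, and the part of cell makeup in the values below was not tested.

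Pmm1 was the member that differed most. Its level was 44.2, 51.4 and 46.2 CPM in knockout hearts and 5.27, 5.11 and 5.34 CPM in control hearts, from 833, 885 and 574 counts and 70, 46 and 46 counts. Each knockout heart lay far above each control heart, and the controls were within a few percent of each other. The mean was 47.3 ± 3.71 CPM in knockouts and 5.24 ± 0.118 CPM in controls (SD, n = 3 each). The log2 fold change was 3.17 (SE 0.13), which is 9.01-fold with 8.24 to 9.84 as the range of 1 SE. This placed Pmm1 80th from the highest among 14302 tested genes. The phosphomannomutase Pmm1 (ENSMUSG00000022474.14) lies on chromosome 15, 81951108 to 81960930 in GRCm38, and no annotated gene overlaps its exons. In the mouse, Pmm1 is also known as a glucose 1,6-bisphosphatase of brain that inosine monophosphate switches on.

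Pmm2, the paralog whose loss causes a disorder of N-glycosylation in people, was near its control level on the TMM scale. It was at 22.3, 23.3 and 21.3 CPM in knockout hearts and at 19.3, 21.6 and 20.8 CPM in control hearts, a log2 fold change of 0.12 (SE 0.12), or 0.82 under library size alone. The groups overlapped. Pmm2 (ENSMUSG00000022711.15) lies on chromosome 16, 8637674 to 8662467, and 0.7% of its exon bases are shared with Tmem186.

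The share of Pmm1 in the 2 phosphomannomutase mRNAs does not depend on library scaling. On counts per kilobase of exon, Pmm1 made up 79.3%, 81.0% and 80.8% of the pair in knockout hearts and 34.5%, 31.4% and 33.2% in control hearts. The means were 80.3 ± 0.931% and 33.0 ± 1.58% (SD, n = 3 each). Pmm1 was thus the larger of the 2 mRNAs in every knockout heart and the smaller in every control heart. The order was the same when counts were not divided by length (67.9% and 20.4%) and with the length of the longest protein-coding transcript (74.98% and 26.6%), the last chosen after the data were seen. The summed level of the pair was 20.5 ± 1.43 CPM per kilobase in knockouts and 5.54 ± 0.194 CPM per kilobase in controls. The coding sequences, of 786 and 726 bases, were 67.9% identical over 723 aligned bases, and the longest run of bases that the longest transcripts share was 11.

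**Figure D1:**
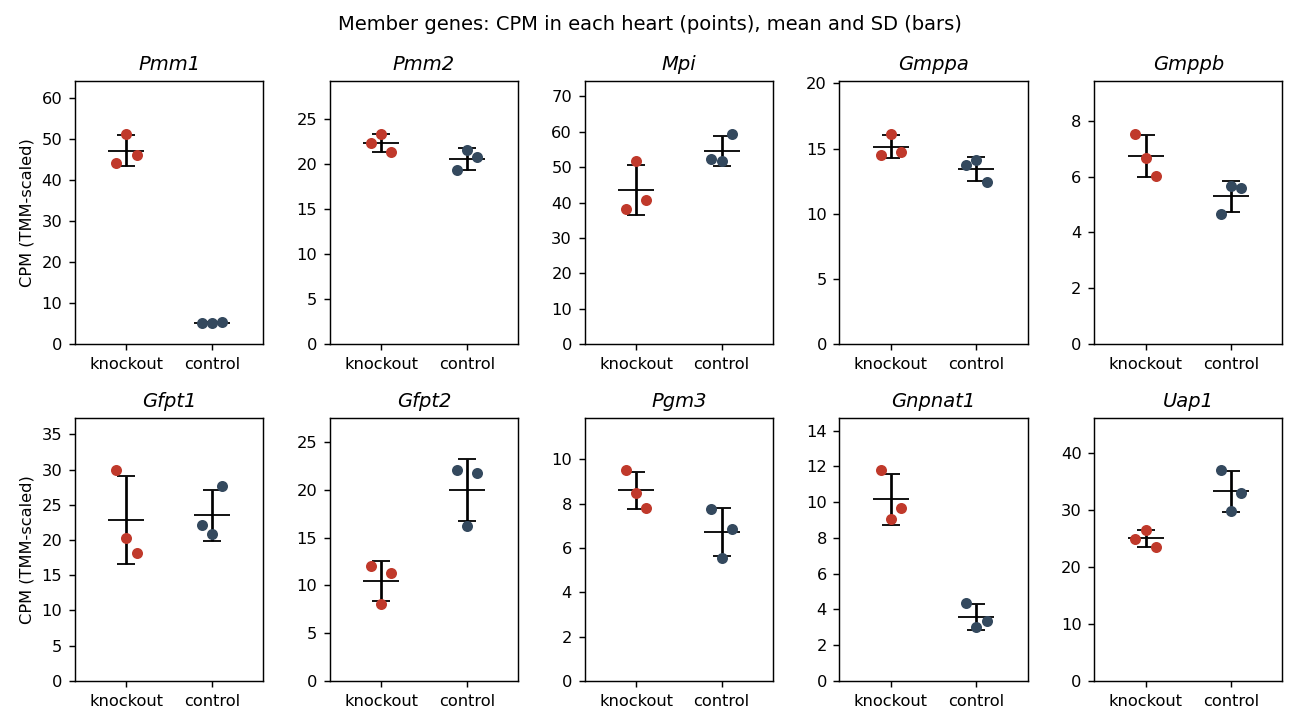
CPM of each of the 10 enzymes (linear axis from 0, a scale for each panel) in 3 knockout hearts, left, and 3 control hearts, right, with points for hearts and bars for the mean and SD. Pmm1, Gnpnat1, Gmppa, Gmppb and Pgm3 stood above the controls in each knockout heart, and Gfpt2, Uap1 and Mpi below. Pgm3 and Mpi were only barely apart, and the gaps of Gmppa and Gmppb were small. Pmm2 and Gfpt1 overlapped.

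Mpi, at the entry of the mannose arm, was at 38.2, 51.7 and 40.8 CPM in knockout hearts and at 52.4, 51.8 and 59.5 CPM in control hearts. Knockout 2 lay just under the lowest control, and the other knockouts were well below it. The log2 fold change was -0.32 (SE 0.14), past the threshold without knockout 2 (-0.46) and with the sign turned under library size alone (0.38). Mpi (ENSMUSG00000032306.14) lies on chromosome 9, 57544256 to 57552763.

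GDP-mannose pyrophosphorylase showed small differences in both subunits. Gmppb, the catalytic subunit, was at 7.54, 6.68 and 6.04 CPM in knockout hearts and at 4.66, 5.67 and 5.58 CPM in control hearts, a log2 fold change of 0.36 (SE 0.18). Gmppa, the subunit through which GDP-mannose is known to restrain the enzyme, was at 14.5, 16.1 and 14.7 CPM and at 13.8, 14.1 and 12.4 CPM, a log2 fold change of 0.17 (SE 0.13). Neither passed the threshold, although for both genes the lowest knockout heart lay above the highest control heart. Gmppb (ENSMUSG00000070284.10, chromosome 9, 108049242 to 108052801) shares 33.6% of its exon bases with Rnf123 on the opposite strand. Rnf123 was at 20.6 to 28.2 CPM in knockouts and at 37.0 to 42.6 CPM in controls, and its part in the Gmppb counts was not tested. Gmppa (ENSMUSG00000033021.16) lies on chromosome 1, 75435930 to 75443179.

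At the head of the hexosamine arm, the 2 amidotransferases differed in the size of their fold change. Gfpt2 was at 11.99, 8.07 and 11.3 CPM in knockout hearts and at 22.04, 16.2 and 21.7 CPM in control hearts, and each knockout heart lay below each control. The log2 fold change was -0.94 (SE 0.19), and -0.25 under library size alone. Gfpt1 was at 29.9, 20.3 and 18.2 CPM and at 22.2, 20.8 and 27.6 CPM, a log2 fold change of -0.04 (SE 0.19). Knockout 1 was the highest Gfpt1 value of all 6 hearts and knockouts 2 and 3 were the lowest, so the groups overlapped. The fold change of Gfpt1 was -0.28 without knockout 1 and 0.10 without knockout 3, and it was also above 0 without control 3 or knockout 2, with no filter and under library size alone (0.66).

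Within the amidotransferase pair, Gfpt1 made up 58.0%, 58.2% and 47.3% of the length-scaled level in knockout hearts and 35.9%, 41.6% and 41.4% in control hearts, with no overlap. The means were 54.5 ± 6.28% and 39.6 ± 3.25% (SD, n = 3 each). Their summed level was 4.13 ± 0.870 CPM per kilobase in knockouts and 5.91 ± 0.856 CPM per kilobase in controls. The coding sequences of 2043 and 2046 bases were 72.4% identical over 2034 aligned bases. The longest run that the longest transcripts share was 23 bases, aagtttctggaaagcaaaggcta, shown as the most that a read could match without a mismatch in both of these transcripts. Gfpt1 (ENSMUSG00000029992.14) lies on chromosome 6, 87042846 to 87092197, and Gfpt2 (ENSMUSG00000020363.6) on chromosome 11, 49794178 to 49838613. Which of the 2 was the larger mRNA depended on the heart and on the length used. Without length, Gfpt1 was at 71.4%, 71.5% and 61.8% in knockout hearts and at 50.2%, 56.2% and 56.0% in control hearts, and with the longest protein-coding transcript it averaged 50.5% in knockouts and 35.8% in controls.

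**Figure D2:**
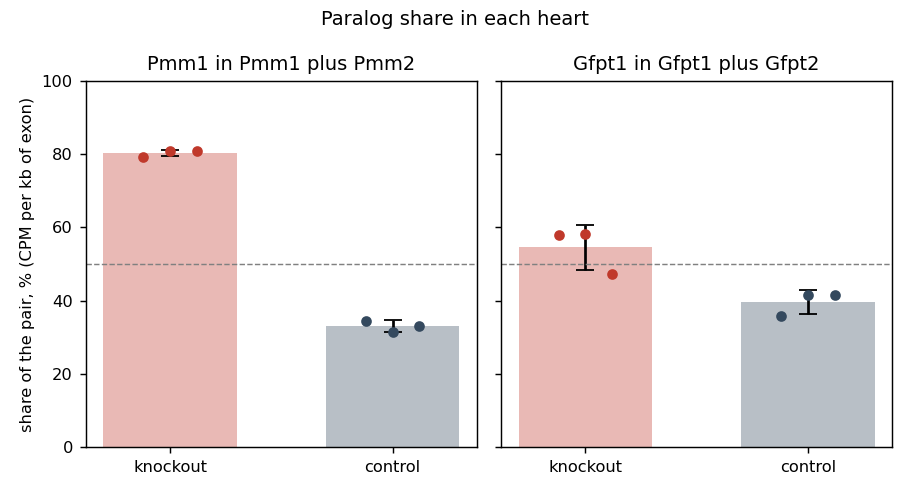
Share of Pmm1 in the Pmm1 and Pmm2 pair and of Gfpt1 in the Gfpt1 and Gfpt2 pair, in percent of CPM per kilobase of exon, for 3 knockout and 3 control hearts. Points are hearts, columns are means, bars are SD and the dashed line is at 50%. Pmm1 was at 79.3% to 81.0% in knockouts and at 31.4% to 34.5% in controls.

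Gnpnat1, the acetyltransferase of the next step, was the second member with a large difference. It was at 11.8, 9.06 and 9.66 CPM in knockout hearts and at 4.36, 3.0 and 3.37 CPM in control hearts, from 222, 156 and 120 counts and 58, 27 and 29 counts. The groups were well apart, with a log2 fold change of 1.49 (SE 0.20) and 1.36 to 1.68 when 1 library was left out. Gnpnat1 (ENSMUSG00000037722.7) lies on chromosome 14, 45376334 to 45404913. In GENCODE M21, 81.9% of its exon bases are also exons of Styx on the opposite strand. Styx, a catalytically inactive phosphatase relative, was at 2.97, 3.89 and 3.14 CPM in knockouts and at 3.91, 2.44 and 3.02 CPM in controls, with a log2 fold change of 0.07 (SE 0.24, edgeR adjusted p = 0.838). Gm14698 matches a Gnpnat1 transcript at 99.8% over 552 bases, the coding length of Gnpnat1, and was at 0.966 to 1.63 CPM in knockouts and at 1.11 to 2.09 CPM in controls. Neither Styx nor Gm14698 was higher in knockouts with the groups apart. A processed pseudogene also matched a Gnpnat1 transcript, at 98.6% over 556 bases, and was not found by name among the counts. The labels do not state how reads of the shared bases were assigned, so the level of Gnpnat1 is less certain than that of Pmm1.

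Pgm3 and Uap1 complete the arm. Pgm3 was at 9.50, 8.48 and 7.81 CPM in knockout hearts and at 7.75, 5.56 and 6.85 CPM in control hearts, a log2 fold change of 0.35 (SE 0.17), with the lowest knockout barely above the highest control. Pgm3 (ENSMUSG00000056131.13, chromosome 9, 86554377 to 86571842) shares 28.3% of its exon bases with Dopey1 on the opposite strand, which was at 38.8 to 43.9 CPM in knockouts and at 41.8 to 48.3 CPM in controls. Uap1 was at 24.99, 26.6 and 23.6 CPM in knockout hearts and at 37.0, 29.9 and 33.0 CPM in control hearts. Each knockout heart was lower than each control, with a log2 fold change of -0.41 (SE 0.12). Its place past the threshold was lost without control 1, control 3 or knockout 3, with no filter, with the replicate number as a block and in the authors' deposited table, and the sign turned under library size alone (0.27). Uap1 (ENSMUSG00000026670.15) lies on chromosome 1, 170141938 to 170174957.

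Of the 10 members, 4 were past an adjusted p of 0.05 in the fit over all genes, where 36.5% of all tested genes were. Pmm1 and Gnpnat1 were the 2 higher ones, against 18.7% of tested genes called higher, and Gfpt2 and Uap1 the 2 lower ones, against 17.8% called lower. The median log2 fold change of the 10 was 0.15, against -0.01 over all tested genes. On the TMM scale the groups did not overlap in 8 of the 10, as in 50.6% of tested genes. Of these, 5 members were higher in knockouts, against 26.2% of tested genes, and 3 were lower, against 24.5%. Some gaps were very small, as for Mpi, with the highest knockout at 51.73 CPM and the lowest control at 51.78 CPM. Separation was not counted under other scalings, where it can differ. Under library size alone the median over all genes moved to 0.68, and 8645 of 14302 tested genes were called, 8093 of them higher. There 7 members were past the threshold, all higher. These read 3.86 for Pmm1, 2.16 for Gnpnat1, 1.06 for Gmppb, 1.03 for Pgm3, 0.86 for Gmppa, 0.82 for Pmm2 and 0.66 for Gfpt1. Mpi at 0.38, Uap1 at 0.27 and Gfpt2 at -0.25 were not past it, so Uap1 and Gfpt2 lost their place there. Relative to the shift of 0.68, Gfpt1, Mpi, Uap1 and Gfpt2 lay below the median of all genes and the other 6 members above it. No member lost or gained its call under DESeq2 or limma-voom.

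**Figure D3:**
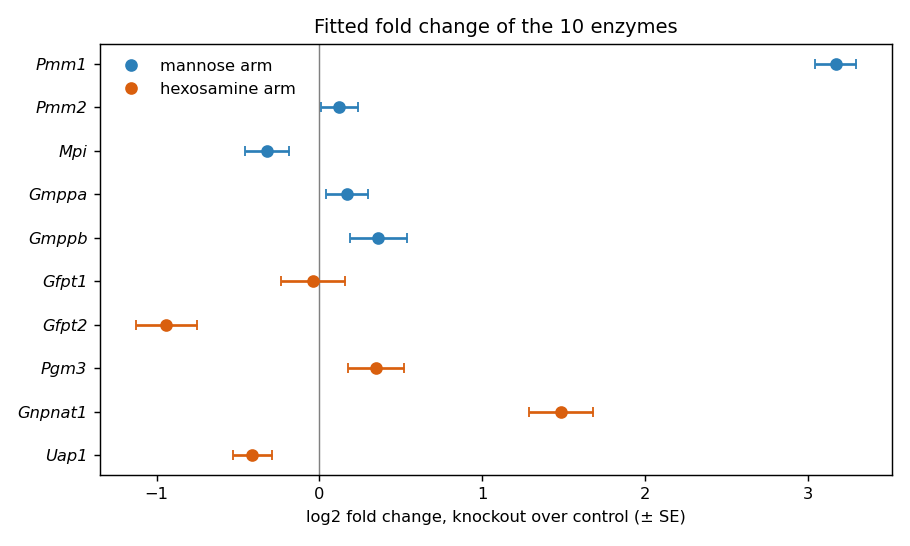
Log2 fold change of each enzyme, knockout over control, with its SE (bars), in the mannose arm (blue) and the hexosamine arm (orange). Pmm1 at 3.17 and Gnpnat1 at 1.49 stood highest and Gfpt2 at -0.94 lowest.

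Levels per kilobase of exon rank the mRNAs within a heart. In knockouts the order ran from Pmm1 at 16.5 ± 1.29 CPM per kilobase and Mpi at 13.9 ± 2.28, whose ranges overlapped, through Gmppa at 6.32 and Uap1 at 6.25, which also overlapped, to Pmm2 at 4.03. Gmppb, Gfpt1, Gnpnat1, Pgm3 and Gfpt2 followed between 2.42 and 1.87 CPM per kilobase, with each overlapping the next. In controls Mpi led at 17.4 ± 1.36 CPM per kilobase, followed by Uap1 at 8.30, Gmppa at 5.61 and Pmm2 at 3.71, each apart from the next. Gfpt2 at 3.58 overlapped Pmm2, Gfpt1 stood at 2.34, and Gmppb at 1.90 overlapped Pmm1 at 1.83. Pgm3 at 1.498 and Gnpnat1 at 0.756 CPM per kilobase were the lowest. On these lengths Pmm1 was 1st of the 10 in knockouts and 8th in controls, while Gfpt2 was 10th in knockouts and 5th in controls. The longest protein-coding transcripts are shorter by unequal shares, at 1300 of 2866 bases for Pmm1, 2947 of 5591 for Gfpt2 and 2702 of 2785 for Gmppb. Ranks and overlaps were not computed on those transcripts and can differ with them. Lengths are unions of exons in GENCODE M21, and the deposited identifiers carry other version numbers for some members, so the annotation counted may differ. Gnpnat1, Gmppb and Pgm3 share 81.9%, 33.6% and 28.3% of these bases with a gene on the opposite strand. How reads of shared bases were counted is not stated, so the levels per kilobase and ranks of Gnpnat1, Gmppb and Pgm3 are less certain.

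**Figure D4:**
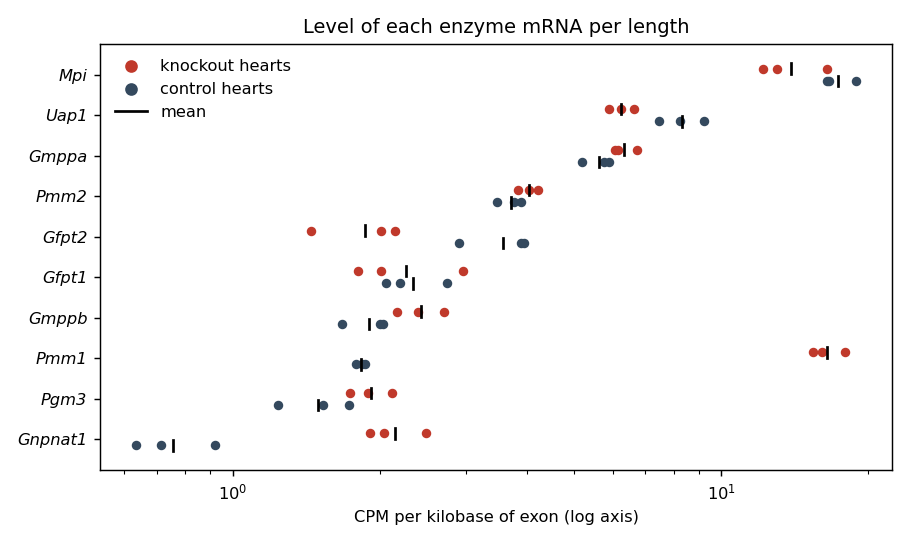
CPM per kilobase of exon (log axis) of each enzyme mRNA in 3 knockout hearts (red, upper row of each gene) and 3 control hearts (grey, lower row), with the mean as a line. Pmm1 lay at 15.4 to 17.9 in knockouts and at 1.78 to 1.86 in controls.

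The 5 protein-coding genes whose profile over the 6 hearts was most like that of Pmm1 were Ppef1, Sesn2, Atf4, Avil and Adm2. Likeness was the root mean square difference of log2 CPM, with 0.1 CPM added and each gene centred on its mean, and ran from 0.137 for Ppef1 to 0.200 for Adm2. Sesn2, which restrains mTORC1 when amino acids are short, was at 20.5, 20.03 and 16.7 CPM in knockout hearts and at 1.97 ± 0.276 CPM in controls (SD, n = 3). Atf4, the transcription factor of the integrated stress response, averaged 250.9 ± 29.1 CPM in knockouts and 34.6 ± 3.18 CPM in controls (SD, n = 3 each). The actin-binding gene Avil averaged 13.1 ± 2.54 CPM in knockouts and 1.65 ± 0.207 CPM in controls (SD, n = 3 each). Ppef1 and Adm2 had 0 counts in each control library and 10 to 21 counts in each knockout library, so their likeness depends on the 0.1 CPM added. The measure follows the difference between the groups above all, since for Pmm1 that difference was far larger than the spread within a group.

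The enzymes and proteins around the 10 members changed less than Pmm1. Of 107 tested genes in 11 lists, 24 were higher and 12 were lower in edgeR's quasi-likelihood test at an adjusted p under 0.05, which is 22.4% and 11.2%, against 18.7% and 17.8% of all tested genes. The median log2 fold change was 0.18, and single values ran from -1.17 to 0.94. The total was 21 without knockout 2, 5 of them lower. Library size alone gave 83 higher and 0 lower, where 8093 of all 14302 tested genes were called higher and 552 lower. Each lower call named below was thus lost under library size alone.

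Among users of GDP-mannose and GDP-fucose, 2 of 10 were higher and 1 lower. Tsta3, an enzyme on the route from GDP-mannose to GDP-fucose, was higher by 0.72 (SE 0.15, edgeR adjusted p = 4.91e-03). Mpdu1, needed for use of dolichol-linked mannose, was higher by 0.72 (SE 0.16, edgeR adjusted p = 6.33e-03). The Golgi GDP-fucose carrier Slc35c1 stood at -0.87 (SE 0.28, edgeR adjusted p = 0.0340), which no longer passed when control 2, control 3, knockout 2 or knockout 3 was left out, with DESeq2, with the replicate block and in the authors' deposited table. The dolichol phosphate mannose synthase genes Dpm1, Dpm2 and Dpm3 stood at -0.08, 0.40 and 0.28 and were not called.

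Assembly of the dolichol-linked oligosaccharide had 3 of 19 genes higher and 1 lower, or 2 lower without knockout 1. Alg14 and Alg1, of the second N-acetylglucosamine and the first mannose steps, were higher by 0.83 (SE 0.19, edgeR adjusted p = 6.48e-03) and 0.73 (SE 0.16, edgeR adjusted p = 6.24e-03). The glucosyltransferase Alg6 was lower at -0.77 (SE 0.17, edgeR adjusted p = 6.73e-03). Of 12 oligosaccharyltransferase subunits, which move that oligosaccharide onto proteins, 6 were higher and 0 lower, with 0 lower at an unadjusted p under 0.05 and with DESeq2 or limma-voom. The 6 became 2 without control 2 and 3 without control 3, knockout 1 or knockout 2, and were 3 with DESeq2 and 2 with the replicate block. Ostc was at 0.81 (SE 0.14, edgeR adjusted p = 1.85e-03) and Krtcap2 at 0.68 (SE 0.14, edgeR adjusted p = 3.99e-03), and the catalytic subunit Stt3b at 0.39 (SE 0.10, edgeR adjusted p = 0.0156) lost its call without control 2 and with the block.

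In the Golgi, 4 of 11 genes of N-glycan trimming and branching were lower and 0 higher. At an unadjusted p under 0.05, 2 were higher, and DESeq2 and limma-voom called 0 higher. Mgat5, which starts a branch of complex N-glycans, was at 17.6 CPM in knockouts and 30.6 CPM in controls, a log2 fold change of -0.80 (SE 0.12, edgeR adjusted p = 8.37e-04). Man2a2, a mannosidase, was lower at -0.74 (SE 0.14, edgeR adjusted p = 2.69e-03), and Mgat4a at -0.52 (SE 0.13, edgeR adjusted p = 0.0125), a call lost without knockout 2. The 4 became 2 without knockout 2, and 1 gene was higher without knockout 1, with no filter and under TMM without mitochondrial-encoded genes, and 2 without knockout 3. Under library size alone, where the median over all genes was 0.68, the calls of the list turned to 6 higher and 0 lower. Mgat5 and Man2a2 then stood at -0.10 and -0.03, below that median.

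O-mannosylation of dystroglycan, the muscle process that depends on GDP-mannose, went both ways, with 3 of 13 genes higher and 4 lower. Pomgnt1 was higher by 0.66 (SE 0.10, edgeR adjusted p = 1.05e-03). B4gat1 was lower at -0.58 (SE 0.16, edgeR adjusted p = 0.0173), a call lost without control 1 or control 2. The 4 lower genes became 1 without control 1, control 2, control 3 or knockout 2, and 2 with the replicate block and in the authors' deposited table. Library size alone gave 8 higher and 0 lower.

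On the UDP-GlcNAc side, Ogt, which places O-GlcNAc, was the 1 gene called of 6, at 0.37 (SE 0.12, edgeR adjusted p = 0.0388). That call was lost without any 1 library other than knockout 1 and with the replicate block. Of 4 tested genes of sialic acid synthesis, Nans and Cmas were higher by 0.73 (SE 0.17, edgeR adjusted p = 7.33e-03) and 0.53 (SE 0.13, edgeR adjusted p = 0.0109). Both calls held without each library in turn. Of 3 hyaluronan synthases only Has3 passed the filter, at 0.791 CPM in knockouts and 1.70 CPM in controls (log2 fold change -1.15, SE 0.35, edgeR adjusted p = 0.0291). Has3 missed the threshold without control 1, control 3, knockout 1 or knockout 2, with DESeq2, with the replicate block and in the authors' deposited table. Salvage and breakdown of amino sugars, mannose and fucose had 3 of 10 genes higher and 1 lower. Galk2, an N-acetylgalactosamine kinase, was higher by 0.78 (SE 0.15, edgeR adjusted p = 2.77e-03). Uap1l1, the homolog of Uap1, was higher by 0.69 (SE 0.19, edgeR adjusted p = 0.0169), a call lost without control 1 or knockout 2. Gnpda1, which returns glucosamine 6-phosphate to fructose 6-phosphate, was lower at -0.70 (SE 0.17, edgeR adjusted p = 0.0112). The higher count was 1 without control 1 or knockout 2 and 5 without knockout 1.

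Supply of hexose phosphates showed 0 calls among 7 genes with edgeR on the TMM scale, and 0 at an unadjusted p under 0.05, with DESeq2 or with limma-voom. With the replicate block, with no filter and without knockout 1, 1 gene was called lower, and library size alone gave 5 higher. Gpi1, which makes fructose 6-phosphate for both arms, had the smallest p, at 0.24 (SE 0.11, edgeR adjusted p = 0.122). In the unfolded protein response of the endoplasmic reticulum 4 of 14 genes were higher and 0 lower, with 0 lower at an unadjusted p under 0.05 and with DESeq2 or limma-voom, or 1 lower without knockout 1. The stress sensors Ern1 and Atf6 were higher by 0.94 (SE 0.12, edgeR adjusted p = 2.88e-04) and 0.93 (SE 0.14, edgeR adjusted p = 9.39e-04), and the chaperone cofactor Dnajb9 by 0.70 (SE 0.14, edgeR adjusted p = 3.38e-03). The lumenal chaperones Hspa5 and Hsp90b1 stood at 0.30 and -0.18 and were not called.

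**Figure D5:**
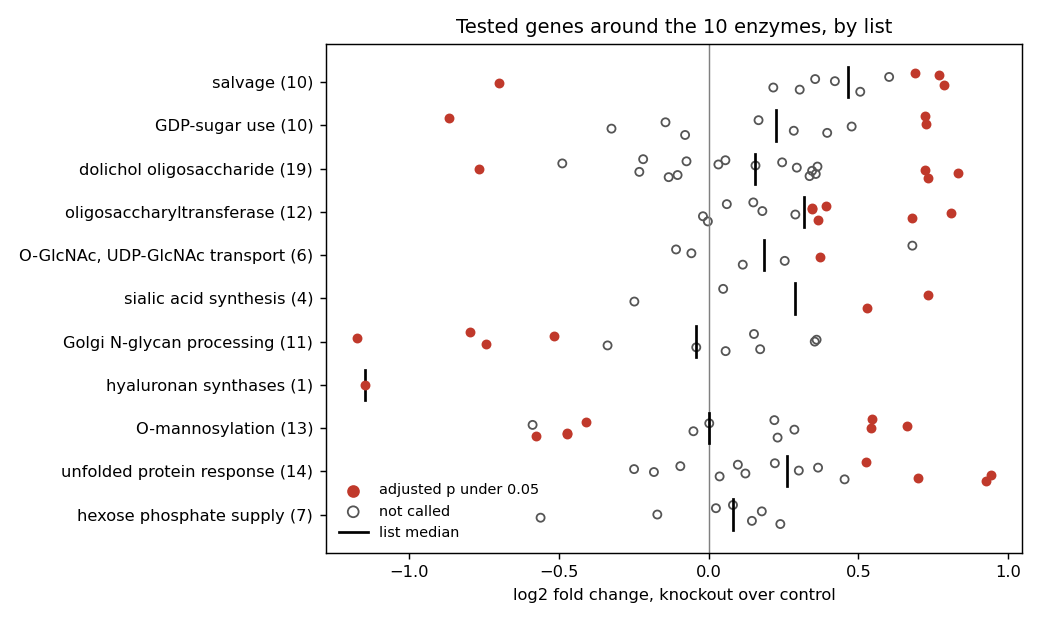
Log2 fold change, knockout over control, of each tested gene in the 11 lists around the 10 enzymes, with the number tested in brackets. Filled points passed an adjusted p of 0.05, open points did not, and the black line is the list median. Golgi N-glycan processing held 4 filled points below 0 and oligosaccharyltransferase 6 above 0.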

How the data were processed

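RNA of 6 mouse hearts was measured by paired-end sequencing. HISAT2 2.0.5, SAMtools 1.5, featureCounts 1.5.1, DESeq2 1.16.1 and mm10 are named in the submitters' processing notes, with no role or option. The authors deposited whole-number counts per gene and, as a signal, the same counts divided by 1 size factor per library. The authors' deposited table gives log2 fold changes, a test statistic that is a score, and p-values. The use of strand in counting is not stated.

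All genes entered 1 quasi-likelihood fit in edgeR 4.0.16 (R 4.3.3), with TMM scaling, filterByExpr (minimum count 10), no block and Benjamini-Hochberg adjustment. CPM use the TMM-scaled library sizes. The SE is the absolute log2 fold change divided by the square root of F. Coordinates and lengths are from GENCODE M21 (GRCm38, as mm10), which held 51682 of 51888 row identifiers. Copies were sought with blastn 2.17.0 (at least 90% identity over 100 bases).

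Members, lists and the rule for named genes were chosen with earlier results of these data known. That rule takes the members, Elac2, up to 3 called genes per list by adjusted p (or the 1 with the smallest p), the 5 genes most like Pmm1 and overlapping neighbours. 1 gene that the rule names is not reported here. Dpm1, Dpm2, Dpm3, Hspa5, Hsp90b1 and Gm14698 were named outside it, after their values were seen. Adipocyte markers had 0 of 5 tested genes called, and skeletal muscle markers 1 higher and 1 lower of 2. Counts were simulated for the knockout against control comparison, with 50 genes changed at each fold (14199 genes tested). The test recovered 12% of genes changed 1.5-fold, 56% at 2-fold, 84% at 4-fold and 96% at 8-fold, with 16 false calls. Far fewer genes were changed there than the 5215 called in the data, so these shares do not give the power of the test in the data. Other settings tried were DESeq2 1.42.0, limma-voom (limma 3.58.1), scaling by RLE, by library size alone or by TMM with mitochondrial-encoded genes left out, dropping the filter or raising it to 50 counts in at least 3 libraries, the replicate number as a block, each library left out, an adjusted p under 0.01 and the authors' deposited table. No 2 libraries of a group agreed within counting error (smallest chi-square over its degrees of freedom 8.93).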

Additional observations from a re-analysis of the deposited data

How the results depend on the processing

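Library size alone changed the most. It gave 8645 called genes, 8093 higher and 552 lower, against 5215, 2671 and 2544 with TMM. It gave 83 pathway genes, 83 higher and 0 lower, against 36, 24 and 12, and 7 members, 7 higher and 0 lower. Uap1, Mgat4a and B4gat1 turned to 0.27, 0.19 and 0.12 under it. An adjusted p under 0.01 left 3006 genes, 1591 higher and 1415 lower, and 17 pathway genes, 14 higher and 3 lower. With 1 library left out, 3694 to 5837 genes were called, 1899 to 2903 higher and 1795 to 2934 lower. Pathway genes then numbered 21 to 40, 16 to 25 higher and 5 to 15 lower, and members 3 to 5, always 2 higher and 1 to 3 lower. Members lower numbered 1 with no filter, the replicate block and the authors' deposited table, through Uap1 in each.

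Percent shares without length were 67.9 in knockouts and 20.4 in controls for Pmm1, and 68.2 and 54.1 for Gfpt1. With the longest transcript they were 74.98 and 26.6 for Pmm1, and 50.5 and 35.8 for Gfpt1. With 1 heart left out, Pmm1 was at 80 to 80.85 in knockouts and 32.27 to 33.85 in controls, and Gfpt1 at 52.65 to 58.13 and 38.63 to 41.48.

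The labels do not say that replicate numbers pair the mice. The correlations of deviations between libraries with the same number were -0.198, 0.0852 and -0.0871. With the replicate block 4293 genes were called, and 27 pathway genes, 18 higher and 9 lower. Among the 10 members, Gnpnat1 had the fewest counts in controls, 27 to 58 in each library. In knockouts Gmppb had the fewest, 75 to 142 in each library.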

Other observations

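Over all genes, knockout 1 differed from knockouts 2 and 3 by a chi-square over its degrees of freedom of 28.9 and 30.6, while knockouts 2 and 3 differed by 8.93. Among controls these values were 41.2 to 95.1. The 3 genes that follow were singled out after their values were seen. The hexokinase gene Hk2 was at 240.2 CPM in knockout 1 and at 115.9 and 109.7 CPM in knockouts 2 and 3, against 251.1, 231.2 and 205.4 CPM in controls. Gfpt1 was at 29.9 CPM in knockout 1 and at 20.3 and 18.2 CPM in knockouts 2 and 3. Herpud1, of endoplasmic reticulum protein degradation, was at 71.96 CPM in knockout 1 and at 122.2 and 120.4 CPM in knockouts 2 and 3, against 117.1, 95.3 and 75.96 CPM in controls.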
